A study of Arabidopsis thaliana with 29 samples.

Results

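The transition of Arabidopsis thaliana embryos between the globular and the heart stage was described from the total reads of 8 libraries, 4 of heart embryos and 4 of globular embryos, out of 29 in the series. At the globular stage the embryo is a ball of cells with an outer protoderm. At the heart stage the cotyledons bulge out, the shoot meristem lies between them, the root pole is laid down and plastids begin to green. The series, titled as a study of parental genome contributions, profiled 7 stages of hybrid embryos from crosses between the accessions Col-0 and Tsu-1. The groups used here were heart Col-0 × Tsu-1, heart Tsu-1 × Col-0, globular Col-0 × Tsu-1 and globular Tsu-1 × Col-0, with 2 libraries each. Crosses are written mother first, so CT embryos have a Col-0 mother and a Tsu-1 father and TC embryos the reverse. All 8 libraries therefore come from F1 hybrids, and no inbred embryo enters the comparison. Each library holds RNA from embryos dissected by hand, washed away from maternal tissue and then amplified. The labels call the libraries biological replicates, but do not say whether they share mother plants.

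Library totals ranged from 8.07 to 34.0 M reads at heart and from 1.49 to 45.3 M reads at globular, where TC replicate 2 was the shallowest of the 8. The first principal component, with 46.4% of the variance, separated the 4 heart libraries from the 4 globular ones. LEC1, a regulator of embryo identity, was read at 133 CPM or more in each of the 8 libraries. ATML1, a homeodomain factor of the embryo's outer layer, was at 124 CPM or more. CPM are counts divided by the library total in megareads after TMM scaling, a correction for library composition. Levels per library are given in the order CT replicates 1 and 2, then TC replicates 1 and 2. They are not divided by gene length, so they are compared within a gene and not between genes. Heart TC replicate 2 stood apart from the other heart libraries in its seed storage transcripts. It held 3421 CPM summed over 13 storage protein and oleosin genes, against 95.1 to 134 CPM in the other heart libraries. Globular TC replicate 2 held 666 CPM of the same genes, against 55.9 to 118 CPM in the other globular libraries. Every gene was therefore also tested without heart TC replicate 2.

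Of 33341 genes in the table, 18932 had enough reads to be tested. At heart 1229 genes were higher and 1968 lower, called by edgeR's quasi-likelihood F test with cross as a covariate at an adjusted p under 0.05. These are 6.49% and 10.4% of the genes tested, 16.9% together. The larger changes were mostly losses: 1141 genes fell at least 4-fold and 298 rose at least 4-fold. Without heart TC replicate 2 the test called 984 genes higher (4.97%) and 1854 lower (9.37%) of 19793. In both fits 2476 genes were called, 895 higher and 1581 lower, and none had opposite signs. Leaving out heart CT replicate 1 left 2072 calls, and leaving out globular TC replicate 1 left 2121. In 1597 genes (8.44%) all 4 heart libraries lay above all 4 globular libraries, and in 1817 genes (9.6%) all 4 lay below. The median change of all genes tested was 0.02 on the log2 scale.

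**Figure D1:**
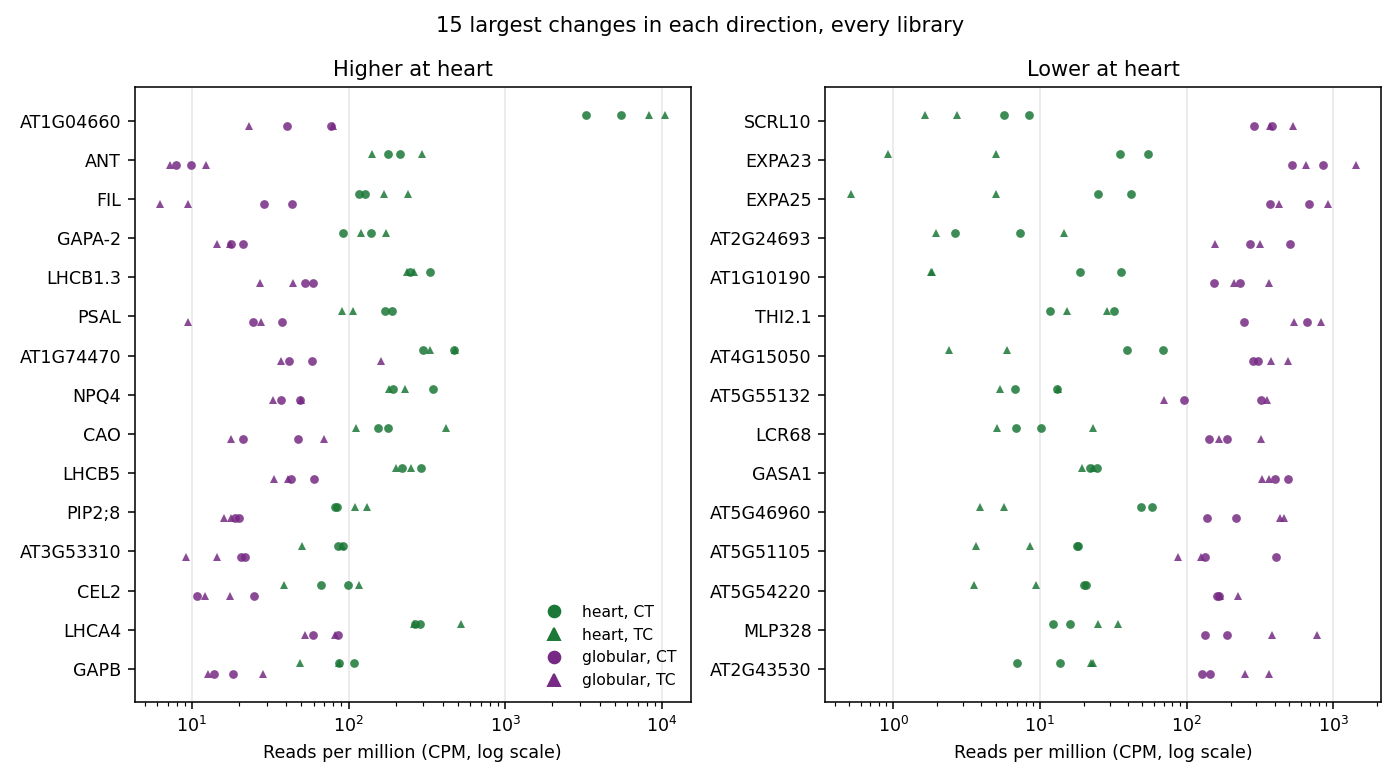
Level in each of the 8 libraries (CPM, log axis) of the 15 genes with the largest rise and the 15 with the largest fall, heart in green and globular in purple, circles for CT and triangles for TC. The genes were chosen for not overlapping between stages, with AT1G04660 between 3275 and 10511 CPM at heart and between 23.2 and 79.2 CPM at globular.

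The largest rise among well-read genes whose libraries did not overlap was that of AT1G04660, which encodes a glycine-rich protein. It was read at 5469, 3275, 8246 and 10511 CPM in heart embryos, against 77.5, 40.7, 23.2 and 79.2 CPM in globular embryos. The log2 fold change of heart over globular was 6.87 ± 0.58 (SE, adjusted p = 5.35e-05), and 6.70 without heart TC replicate 2. Every heart library was above every globular one by a wide margin, in both crosses. Across the series, with all 29 libraries scaled together, it averaged 45.5 ± 41.1 CPM at octant, 45.8 ± 23.4 at globular, 5831 ± 2584 at heart and 10250 ± 4684 at torpedo (SD, n = 4 each).

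ANT, an AP2-type transcription factor that promotes organ growth, was next. It was read at 213, 179, 296 and 140.4 CPM in heart embryos, against 9.81, 7.9, 7.21 and 12.4 CPM in globular embryos. The log2 fold change was 4.51 ± 0.35 (SE, adjusted p = 4.52e-05). Its heart level was also its highest among the embryo stages, 176 ± 52.8 CPM at heart and 80.1 ± 28.8 CPM at torpedo. Other members of its family that act in organ and root growth also rose, PLT3 by 1.36 and AIL5 by 1.11 on the log2 scale. PLT1 and PLT2, the related factors that specify the root stem cells, did not pass the test. PLT1 averaged 49.1 ± 29 CPM at heart and 65.6 ± 6.32 CPM at globular, and PLT2 35.8 ± 11.8 and 43.0 ± 10.14 CPM (SD, n = 4 each).

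**Figure D2:**
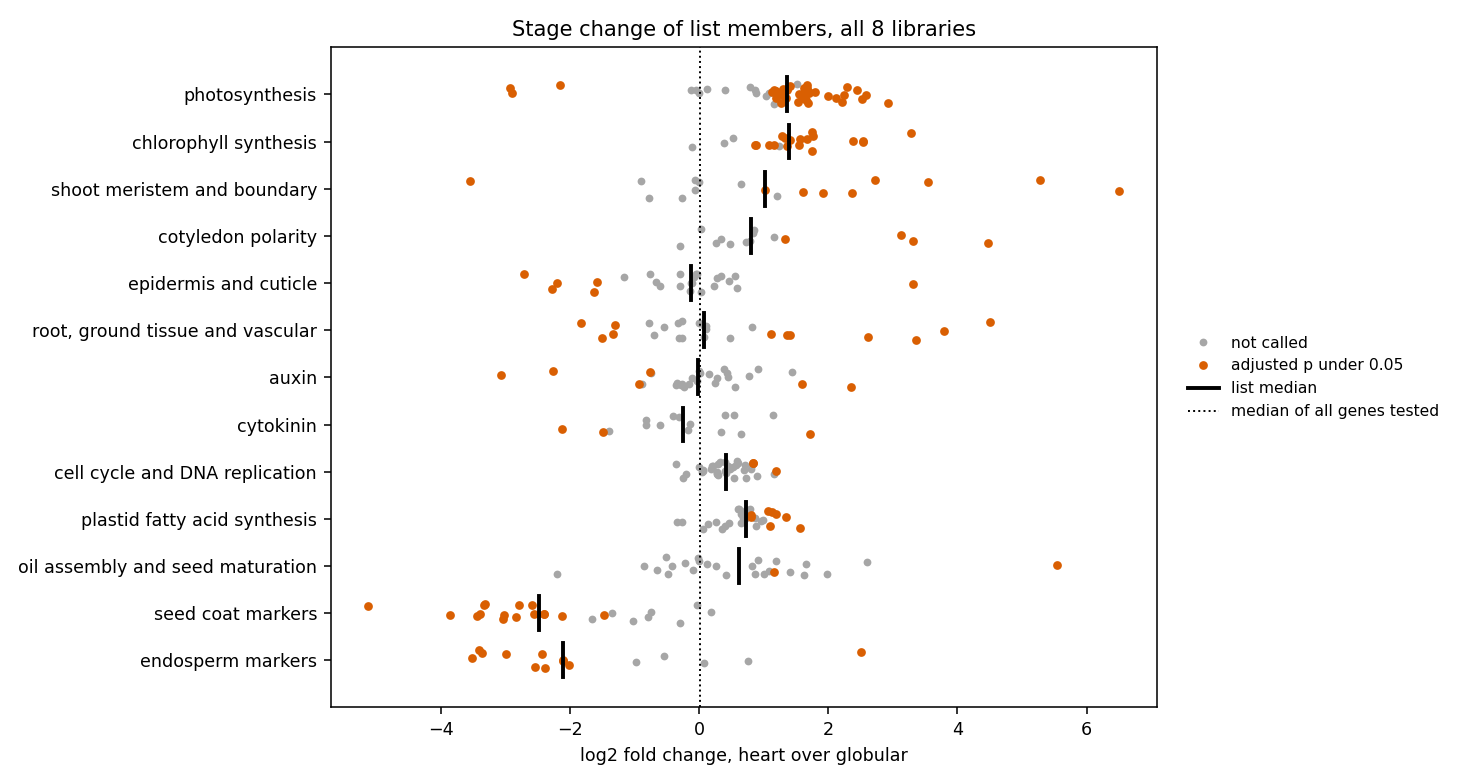
Log2 fold change of heart over globular for each tested member of 13 gene lists, orange where the adjusted p was under 0.05 and grey otherwise, with the list median as a black bar. Photosynthesis and chlorophyll members lie mostly to the right (medians 1.37 and 1.39), seed coat and endosperm markers mostly to the left (medians -2.47 and -2.11), and the dotted line marks the median of all genes tested, 0.02.

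Organ primordia and their boundaries. In the embryo a small set of regulators sets up the shoot meristem (STM and its homeodomain partners), marks the boundary around it (CUC, BOP and LOF genes) and gives each cotyledon an upper and a lower side (HD-ZIP III genes above, YABBY and KANADI genes below). Of 21 such shoot meristem and boundary genes 17 were tested, 8 rose (47.1%, against 6.49% of all genes) and 1 fell. The median log2 fold change was 1.02. Members near 0 at globular, such as BOP2 and LOF1, passed the read filter only through their heart reads. The same holds for such members of the lists below, so these shares are a description and no test. BOP2, a boundary and leaf-base regulator, was at 42.5, 29.6, 12.5 and 42.4 CPM in heart embryos and at 0.579, 0.376, 0 and 0.727 CPM in globular embryos. This gene was close to undetected at globular and present in every heart library (log2 fold change 6.51 ± 0.65, SE, adjusted p = 0.000109). LOF1, a MYB factor of organ boundaries, was at 2.79 to 4.3 CPM at heart and was read in a single globular library, at 0.151 CPM.

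STM, which keeps meristem cells undifferentiated, was at 15.3, 11.4, 6.14 and 7.41 CPM in heart embryos, against 1.43, 1.5, 0.0858 and 1.45 CPM in globular embryos. The libraries did not overlap, and the log2 fold change was 3.54 ± 0.48 (SE, adjusted p = 0.000521). Its relatives KNAT1 and KNAT2 rose by 1.62 and 1.02 on the log2 scale, and PNY, a homeodomain partner of STM, by 2.36. CLV1, the receptor kinase that limits meristem size, averaged 31.1 ± 14.9 CPM at heart and 4.44 ± 1.02 CPM at globular (SD, n = 4 each). AS1, a MYB factor that keeps meristem genes off in organs, rose by 1.91. Each of these rises also passed without heart TC replicate 2.

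The boundary genes CUC1 and CUC2 did not follow BOP2 and LOF1. CUC1 was at 29.9 to 96.1 CPM at heart and at 37.7 to 95.1 CPM at globular, with a log2 fold change of -0.06 ± 0.31 (SE, adjusted p = 0.924). CUC2 averaged 102 ± 44.0 CPM at heart and 177 ± 38.4 CPM at globular (SD, n = 4 each) and missed the threshold (adjusted p = 0.0765). The meristem gene KNAT6 did not pass either, at 32.6 ± 10.6 CPM at heart and 36.2 ± 20.3 CPM at globular.

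Of 14 tested cotyledon polarity genes 4 rose (28.6%, against 6.49% of all genes) and none fell. The 4 are YABBY genes, which mark the lower side of cotyledons and leaves. FIL was at 117, 127, 169 and 238 CPM in heart embryos, against 43.4, 29.1, 6.26 and 9.45 CPM in globular embryos (log2 fold change 3.13 ± 0.58, SE, adjusted p = 0.00354). The change was 1.74 within CT libraries and 4.77 within TC libraries, and the interaction of stage and cross did not pass (adjusted p = 0.0872). YAB3 was at 3.17, 0.985, 16.4 and 15.2 CPM at heart and at 0 to 0.376 CPM at globular. YAB2 was at 1.97 to 17.4 CPM at heart and at 0 to 0.686 CPM at globular, and YAB5 changed by 1.33. PHB, a HD-ZIP III gene of the upper side, was at 113 to 193 CPM at heart and at 66.5 to 193 CPM at globular. KAN1 was at 3.78 to 13.1 CPM at heart and at 2.91 to 7.27 CPM at globular, and neither passed the test. WOX3, which acts at the margins of lateral organs, was at 15.3, 26.4, 20.6 and 26.2 CPM at heart and at 0.78, 4.01, 1.2 and 0 CPM at globular (log2 fold change 3.8 ± 0.57, SE, adjusted p = 0.000953).

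DRN, also called ESR1, an AP2-type factor of the early embryo apex, was the member that fell. It was at 17.8, 17.3, 0.41 and 0.456 CPM in heart embryos, against 45.1, 57.4, 40.0 and 57.4 CPM in globular embryos. The globular crosses were alike, whereas both heart TC libraries were far below both heart CT libraries. The log2 fold change was -1.54 within CT libraries and -6.74 within TC libraries, and the difference between the crosses was itself tested (interaction -5.24 ± 0.57, SE, adjusted p = 0.0152). That call was lost when globular CT replicate 1, globular TC replicate 2 or heart CT replicate 2 was left out.

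Greening. Chlorophyll is made from glutamate through porphyrin steps that end in magnesium insertion and reduction, and it is bound by the light-harvesting proteins of photosystems I and II. The GLK factors switch on both sets of genes. Of 22 tested chlorophyll synthesis genes 18 rose (81.8%, against 6.49% of all genes) and none fell, with a median log2 fold change of 1.39. Of 52 photosynthesis genes 35 rose (67.3%) and 3 fell (5.77%), with a median of 1.37. Without heart TC replicate 2 the calls were 16 of 22 rising in the chlorophyll list, and 30 rising and 3 falling of 52 in the photosynthesis list. Summed over the photosynthesis list, heart libraries held 5050 to 7201 CPM, against 1578 to 2307 CPM in globular libraries.

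The rises included 11 of 17 light-harvesting proteins, 8 of 11 photosystem I subunits, 8 of 9 photosystem II subunits and 3 of 5 electron transport and ATP synthase genes. LHCB1.3, a major antenna protein of photosystem II, was at 331, 245, 236 and 262 CPM in heart embryos, against 59.3, 52.7, 27.3 and 44.3 CPM in globular embryos (log2 fold change 2.59 ± 0.28, SE, adjusted p = 0.000165). LHCB1.2, its close copy, changed by 2.92. These copies are nearly identical in sequence, so how reads were divided between them is uncertain. LHCB5, a minor antenna protein, was at 218, 292, 251 and 202 CPM at heart and at 60.4, 42.9, 41.3 and 33.4 CPM at globular. LHCA4, an antenna protein of photosystem I, was at 267, 287, 262 and 521 CPM at heart and at 86.1, 59.1, 52.7 and 81.4 CPM at globular. PSAL, a photosystem I subunit, changed by 2.53 and ATPC1, the gamma subunit of the plastid ATP synthase, by 2.3. NPQ4, the PsbS protein that dissipates excess light energy, averaged 237 ± 74.3 CPM at heart and 42.1 ± 8.47 CPM at globular (SD, n = 4 each). CAO at AT2G47450, the signal recognition particle component that delivers antenna proteins to the thylakoid, changed by 2.45 with all libraries and by 1.95 without heart TC replicate 2, the highest heart library at 419 CPM.

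Of 6 carbon fixation genes on the list other than Rubisco 4 rose and none fell, and of 4 Rubisco small subunit genes 1 rose and 3 fell. The plastid glyceraldehyde-3-phosphate dehydrogenase subunit GAPA-2, which is not on the list, was at 92.3, 139, 173 and 121 CPM in heart embryos, against 21.2, 17.8, 17.4 and 14.5 CPM in globular embryos. GAPB changed by 2.21 on the log2 scale. The Rubisco small subunit genes parted: RBCS1A averaged 591 ± 310 CPM at heart and 175 ± 29.2 CPM at globular (SD, n = 4 each), while RBCS1B, RBCS2B and RBCS3B fell. RBCS3B, the most read of those 3, was at 2.72 ± 1.06 CPM at heart and 12.3 ± 4.61 CPM at globular. The RBCS1B, RBCS2B and RBCS3B genes are near-identical neighbours, so their separate counts are uncertain. The chloroplast-encoded genes, a list added after values were seen and read from libraries of amplified mRNA, showed 10 rises (8.85%, against 6.49% of all genes) and no falls among 113 tested. Their median was 0.33, with 0.03 within CT libraries and 0.81 within TC libraries. Their summed level was 21537 CPM in heart TC replicate 1, against 5511 to 7687 CPM in the other heart libraries and 3964 to 9968 CPM in globular libraries.

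In the chlorophyll list the regulators moved with the enzymes. GLK1 was at 4.93, 3.78, 2.35 and 5.13 CPM in heart embryos, against 0.327, 0.376, 0.515 and 0.727 CPM in globular embryos (log2 fold change 3.29 ± 0.45, SE, adjusted p = 0.000574), and GLK2 changed by 2.54. CH1, the oxygenase that makes chlorophyll b, was at 8.45, 7.31, 18.6 and 18.7 CPM at heart and at 2.11, 1.0, 2.57 and 2.18 CPM at globular. HEMA1, the entry step of the pathway, changed by 1.37, and GUN5 and CHLI2, subunits of magnesium chelatase, by 1.56 and 2.39. AT1G74470, which RefSeq lists as a pyridine nucleotide-disulfide oxidoreductase family protein, was at 300.4 to 478 CPM at heart and at 36.9 to 161 CPM at globular.

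To show what lies in front of these genes, the 250 bases upstream of 5 of them are printed 5′ to 3′ on the gene's strand, read through the RefSeq annotation of TAIR10.1. The first 4 are the risen photosynthesis and chlorophyll genes with the largest fold change whose window holds the G-box CACGTG or the I-box GATAAG, searched on both strands, and overlaps no other gene. The last, of LHCB1.3, holds neither. Capitals mark the motifs (CTTATC is the I-box on the other strand).
GLK1, chr2:8855052-8855301, plus strand: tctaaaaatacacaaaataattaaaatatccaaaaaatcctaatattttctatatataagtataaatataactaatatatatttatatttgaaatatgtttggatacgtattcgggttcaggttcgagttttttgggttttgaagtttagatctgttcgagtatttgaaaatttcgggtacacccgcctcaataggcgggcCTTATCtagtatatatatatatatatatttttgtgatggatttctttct
CH1, chr1:16851272-16851521, minus strand: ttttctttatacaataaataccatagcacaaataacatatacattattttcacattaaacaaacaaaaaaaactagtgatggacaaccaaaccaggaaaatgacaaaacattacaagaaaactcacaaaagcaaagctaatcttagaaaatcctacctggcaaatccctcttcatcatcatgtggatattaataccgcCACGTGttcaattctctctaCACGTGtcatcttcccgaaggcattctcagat
LHCA4, chr3:17495034-17495283, minus strand: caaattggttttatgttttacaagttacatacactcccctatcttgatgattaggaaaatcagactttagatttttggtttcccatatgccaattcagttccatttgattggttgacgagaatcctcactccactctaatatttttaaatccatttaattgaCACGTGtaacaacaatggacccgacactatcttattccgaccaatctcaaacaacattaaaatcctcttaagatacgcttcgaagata
PSAF, chr1:11216142-11216391, minus strand: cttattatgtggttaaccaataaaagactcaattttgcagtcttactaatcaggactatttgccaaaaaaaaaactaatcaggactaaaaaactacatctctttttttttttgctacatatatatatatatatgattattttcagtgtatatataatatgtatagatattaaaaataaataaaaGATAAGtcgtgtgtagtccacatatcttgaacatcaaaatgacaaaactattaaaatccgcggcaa
LHCB1.3, chr1:10477635-10477884, plus strand: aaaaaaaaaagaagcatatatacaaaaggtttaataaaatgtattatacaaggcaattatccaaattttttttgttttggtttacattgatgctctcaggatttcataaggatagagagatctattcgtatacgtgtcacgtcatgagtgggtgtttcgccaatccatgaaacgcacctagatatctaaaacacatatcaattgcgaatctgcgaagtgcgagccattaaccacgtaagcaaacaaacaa

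The G-box was in 9 of the 53 windows of photosynthesis and chlorophyll genes that rose (17.0%), against 1328 of the 17995 windows of all tested protein-coding genes (7.38%). The I-box was in 11 of the 53 (20.8%), against 2183 of 17995 (12.1%). Over all 74 tested members of both lists, risen or not, the G-box was in 13 windows (17.6%) and the I-box in 16 (21.6%), so the shares were no lower with the members that did not rise included. Among the 1113 other genes that rose, 7.64% of windows held the G-box and 15.1% the I-box. These shares are a description of the letters and were not tested.

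Metabolism and division. Fatty acids are made in plastids from pyruvate, through the plastid pyruvate dehydrogenase and acetyl-CoA carboxylase. Of 28 such genes 8 rose (28.6%, against 6.49% of all genes) and none fell (median log2 fold change 0.73), of which 4 passed without heart TC replicate 2. FAB1, a condensing enzyme of chain elongation, was at 162, 189, 154 and 158 CPM in heart embryos, against 59.9, 77.5, 56.0 and 66.9 CPM in globular embryos (log2 fold change 1.35 ± 0.24, SE, adjusted p = 0.00252). CAC2, the biotin carboxylase subunit, averaged 238 ± 55.4 CPM at heart and 103 ± 11.8 CPM at globular (SD, n = 4 each). WRI1, the AP2 factor that drives this pathway in seeds, was at 43.6 ± 11.8 CPM at heart and 28.9 ± 14.2 CPM at globular and did not pass the test (adjusted p = 0.144).

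Of 36 cell cycle and DNA replication genes 3 rose and none fell, 8.33% against 6.49% of all genes. CYCD3;2, a D-type cyclin that promotes entry into division, was at 214, 272, 146 and 149 CPM in heart embryos, against 64.6, 74.2, 71.5 and 128 CPM in globular embryos (log2 fold change 1.2 ± 0.33, SE, adjusted p = 0.029). CYCB1;1, a mitotic cyclin, was at 45.3 ± 8.14 CPM at heart and 43.4 ± 6.08 CPM at globular, and KN, the syntaxin of the new cell plate, at 220.2 ± 60.3 and 133 ± 19.1 CPM (SD, n = 4 each). Neither of these passed.

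In the hormone lists the shares called were near those of all genes, of which 6.49% rose and 10.4% fell. In the auxin list 2 of 28 tested genes rose (7.14%) and 4 fell (14.3%), with 2 falls left without heart TC replicate 2. In the cytokinin list 1 of 16 rose (6.25%) and 2 fell (12.5%). TAR2, an enzyme of auxin synthesis, was at 58.9, 59.4, 34.2 and 38.9 CPM in heart embryos, against 18.2, 16.6, 14.8 and 12.4 CPM in globular embryos (log2 fold change 1.6 ± 0.23, SE, adjusted p = 0.000824). YUC9, from the next step of auxin synthesis, fell to 0.337 ± 0.0578 CPM at heart, against 3.15 ± 1.32 CPM at globular. The auxin response factor MP was at 169 ± 34.1 CPM at heart and 173 ± 66.3 CPM at globular (SD, n = 4 each) and did not pass. The cytokinin receptor AHK2 rose by 1.73 on the log2 scale and the response regulator ARR3 fell by 2.12.

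Root, inner tissue and outer layer. Of 25 tested genes on the root, ground tissue and vascular list 7 rose (28%, against 6.49% of all genes) and 4 fell (16%, against 10.4%). Of the falls, 2 were kept without heart TC replicate 2. The list is broad: the rises were MGP, FEZ, TMO7, PLT3, AIL5 and the organ genes ANT and WOX3 described above. The falls were WOX2, WOX5, WOX8 and NTT. TMO7, a mobile target of MP that acts in root founding, averaged 5.63 ± 2.06 CPM at heart and 0.607 ± 0.305 CPM at globular (SD, n = 4 each). FEZ, a NAC factor of root cap stem cells, changed by 2.62 on the log2 scale. The early patterning gene WOX2 was at 8.42, 10.7, 10.1 and 8.21 CPM in heart embryos, against 37.4, 32.8, 41.2 and 18.9 CPM in globular embryos (log2 fold change -1.82 ± 0.29, SE, adjusted p = 0.00122). WOX5, the marker of the root organizer, fell by 1.3. WOX8, a gene of the basal lineage and suspensor, fell by 1.51 with all libraries (adjusted p = 0.0328) and missed the threshold without heart TC replicate 2 (adjusted p = 0.0713). SHR and SCR, which pattern the ground tissue, did not pass: SCR averaged 112 ± 11.4 CPM at heart and 108 ± 37.2 CPM at globular (SD, n = 4 each).

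In the outer layer 1 of 25 tested genes rose (4%, against 6.49% of all genes) and 5 fell (20%, against 10.4%). HDG1, a homeodomain gene of the ATML1 family, was at 22.1, 19.8, 39.3 and 32.2 CPM in heart embryos, against 1.46, 1.76, 3.77 and 7.27 CPM in globular embryos (log2 fold change 3.31 ± 0.32, SE, adjusted p = 0.000103). LTP1, a lipid transfer protein, was at 26.7 ± 4.71 CPM at heart and 177 ± 71.4 CPM at globular. GPAT4, a cutin synthesis enzyme, was at 13.2 ± 2.39 CPM at heart and 60.8 ± 16.4 CPM at globular (SD, n = 4 each), and the wax transporter CER5 fell by 1.63. ATML1 and PDF1 did not pass. PDF1, a protodermal cell wall protein, was at 578, 291, 2312 and 1392 CPM at heart and at 3687, 2298, 1109.5 and 1567 CPM at globular, where the crosses lay in opposite orders.

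**Figure D3:**
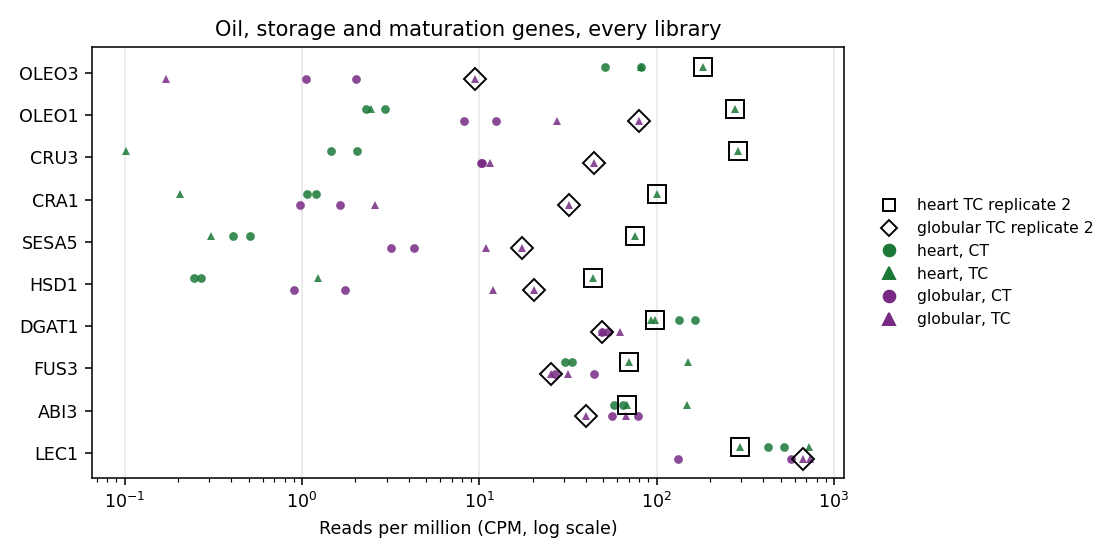
Level (CPM, log axis) of oil, storage and maturation genes in each library, heart in green and globular in purple, with heart TC replicate 2 boxed and globular TC replicate 2 in a diamond. OLEO3 is at 50.9 CPM or more in every heart library, whereas CRU3 and OLEO1 are at 288 and 278 CPM in heart TC replicate 2 and at 2.93 CPM or less in the other heart libraries.

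Oil and storage. Of 26 tested genes of oil assembly and seed maturation 2 rose (7.69%, near the 6.49% of all genes) and none fell with all 8 libraries. OLEO3, an oleosin of the oil body surface, was at 81.3, 50.9, 81.2 and 183 CPM in heart embryos, against 1.06, 2.01, 0.172 and 9.45 CPM in globular embryos (log2 fold change 5.54 ± 0.80, SE, adjusted p = 0.00076). Its change was 5.34 without heart TC replicate 2. DGAT1, the enzyme that completes triacylglycerol, averaged 122 ± 33.0 CPM at heart and 53.6 ± 6.18 CPM at globular (SD, n = 4 each). The maturation regulators LEC1, LEC2, FUS3 and ABI3 did not pass. FUS3 was at 33.1, 30.5, 149 and 70.1 CPM at heart and at 44.3, 26.7, 31.7 and 25.4 CPM at globular.

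The changes of the storage protein genes depended on heart TC replicate 2, and globular TC replicate 2 was also rich in these transcripts. CRU3, a cruciferin, was at 1.46, 2.05, 0.102 and 288 CPM in heart embryos, against 10.4, 10.3, 11.5 and 44.3 CPM in globular embryos. With all libraries its fold change was 0.00 on the log2 scale, and without heart TC replicate 2 it fell by 3.59 (adjusted p = 0.0128). SESA5, an albumin, and OLEO1 likewise fell by 3.66 and 2.76 without that library. In all, 5 of the 26 genes then fell and 2 rose, and the list median was -0.84, against 0.62 with all 8 libraries. All 13 storage genes exceeded 10 CPM in heart TC replicate 2, as did 12 of 13 in globular TC replicate 2 and 2 of 13 in each of the other heart libraries. The falls seen without heart TC replicate 2 still include globular TC replicate 2, the highest globular library for CRU3. Their size with only those libraries left out was not tested. Leaving out globular TC replicate 2 instead gave 3655 stage calls, of which 2891 were also called with all 8 libraries. The part of these transcripts in other results was not tested beyond leaving out single libraries.

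Genes lost at heart. Many of the 15 largest falls among well-read genes that did not overlap between stages were in small secreted peptides and wall proteins. SCRL10, a cysteine-rich SCR-like peptide, was at 8.45, 5.67, 1.64 and 2.74 CPM in heart embryos, against 289, 384, 531 and 373 CPM in globular embryos (log2 fold change -6.55 ± 0.53, SE, adjusted p = 4.9e-05). 6 others of the 15 genes with the largest fall also carry cysteine-rich, defensin-like, thionin or knottin names in RefSeq or the ECA1 gametogenesis name: THI2.1, AT5G55132, LCR68, AT5G51105, AT5G54220 and AT2G43530. This group was therefore gathered by RefSeq product after its values were seen. Words in the product names were matched, so not all members are small secreted peptides. Among those called are a DnaJ domain protein (AT3G47650, which rose), CAP superfamily proteins and transmembrane proteins such as WIH1. The group holds 440 genes, of which 114 were tested, 76 fell and 5 rose. The median was -3.06, with 66.7% of those tested falling against 10.4% of all genes. Most of the others were too low to test, and 89 of the 440 had no read in any of the 8 libraries. Members near 0 at heart passed the read filter only through their globular reads. The group also counts the genes that prompted it, so its share of falls is a description and no test. Summed over the group, heart libraries held 1005 to 1710 CPM and globular libraries 3825 to 6152 CPM.

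EXPA23, an expansin that loosens cell walls, was at 35.0, 54.6, 0.921 and 5.02 CPM in heart embryos, against 523, 856, 1427 and 651 CPM in globular embryos (log2 fold change -6.08 ± 1.04, SE, adjusted p = 0.00204). Its neighbour and close relative EXPA25 fell by 5.84, and reads may be shared between them. The expansins moved in both directions, since EXPA1 rose by 3.02 on the log2 scale. Further protein families seen among the largest falls, also gathered after their values were known, were the DUF239 proteins (18 of 28 tested fell and 1 rose) and the invertase and pectin methylesterase inhibitors (32 of 56 fell and 3 rose), where 10.4% of all genes fell and 6.49% rose. These families have 45 and 109 members, of which 28 and 56 had enough reads to be tested. Members near 0 at heart passed that filter only through their globular reads. The counts also include the genes that drew attention to the families, so they are a description and no test. GASA1, a gibberellin-regulated peptide, was the fall with the smallest adjusted p of the 15. It was at 21.9, 24.5, 22.9 and 19.4 CPM at heart and at 493, 402, 325 and 363 CPM at globular (log2 fold change -4.15 ± 0.27, SE, adjusted p = 1.53e-05).

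Seed coat and endosperm markers fell as well. The seed coat is maternal tissue around the embryo, and the endosperm is its sister product of fertilization. Of 24 seed coat markers 16 fell and none rose. Of 20 endosperm markers 15 were tested, 10 fell and 1 rose. That is 66.7% of those tested falling in each list, against 10.4% of all genes. Members near 0 at heart passed the read filter only through their globular reads, so these shares are a description and no test. The ovule and seed coat identity gene STK was at 5.61, 6.57, 7.47 and 2.85 CPM in heart embryos, against 48.4, 43.3, 46.3 and 46.5 CPM in globular embryos (log2 fold change -3.03 ± 0.32, SE, adjusted p = 0.000128). SHP1, a related MADS-box gene, averaged 2.66 ± 1.54 CPM at heart and 37.2 ± 4.64 CPM at globular. TT4, the first enzyme of flavonoid synthesis, averaged 97.2 ± 73.0 CPM at heart and 699 ± 442 CPM at globular (SD, n = 4 each). Its call was lost without heart TC replicate 2 (adjusted p = 0.054). BAN, which makes tannin precursors in the inner coat, changed by -2.55 and was also lost without that library (adjusted p = 0.105).

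Summed over the 24 seed coat markers, heart libraries held 335 to 582 CPM and globular libraries 1151 to 2552 CPM. None of the 24 was at 0 in all 8 libraries, and TT1 was at 0 in heart CT replicate 2 and at 0.239 CPM or less in the other heart libraries. The endosperm sums were 57.2 to 94.0 CPM at heart and 130 to 186 CPM at globular. Among endosperm markers the imprinted MADS-box gene PHE1 was at 1.22 ± 0.535 CPM at heart and 9.93 ± 5.51 CPM at globular, and the cytokinin oxidase CKX2 at 6.98 ± 4.83 and 64.9 ± 9.87 CPM (SD, n = 4 each). HDG3, a homeodomain gene on that list, rose to 19.97 ± 2.35 CPM at heart, against 3.61 ± 1.43 CPM at globular. Fewer cells of a type and less RNA per cell cannot be told apart in these bulk libraries. The part of seed coat and endosperm RNA in the other falls was not tested.

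**Figure D4:**
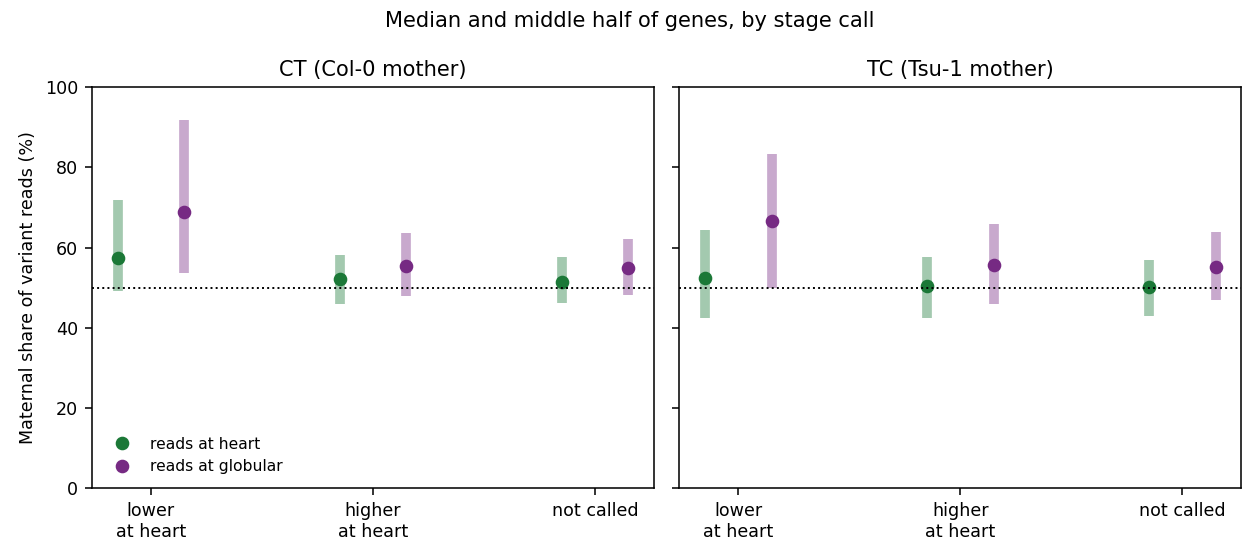
Maternal share of variant reads (%) for genes lower at heart, higher at heart and not called, at heart (green) and globular (purple), points for medians and bars for the range between quartiles, with CT left and TC right. Genes lower at heart have medians of 69.0% (CT) and 66.6% (TC) at globular, against 54.8% to 55.6% in the other classes.

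The authors' deposited maternal fractions, pooled per stage and cross, gave a second view of the falling genes. A fraction is the share of reads over Col-0 and Tsu-1 differences that carry the mother's allele. How the authors estimated it for genes with few reads is not given in the sources used here. Where each cross gave 10 variant reads or more, genes that fell had median globular shares of 69.0% in CT and 66.6% in TC (877 genes). Genes that rose had 55.4% and 55.6% (394 genes) and genes not called 54.8% and 55.2% (6985 genes). By the authors' adjusted p under 0.05, 118 of the 877 falling genes were maternal in both crosses at globular, against 31 of the 6985 not called and 150 of all 8256 (1.82%). For the 477 falling genes read at both stages, the median shares were 57.4% in CT and 52.7% in TC at heart, and 63.7% and 63.1% at globular. The 6647 genes not called were also lower at heart, at 51.5% and 50.2%, against 54.7% and 55.1% at globular.

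The falling genes included maternally biased and balanced ones. GASA1 was 99.8% maternal in CT and 93.8% in TC at heart, and 99.9% and 95.8% at globular, on 17588 and 3849 globular variant reads. AT2G43530, LTP1, TT4 and BAN were likewise above 92% in both crosses at globular. For the seed coat list as a whole the globular medians were 98.8% and 89.9% over 16 genes, of which 10 were maternal in both crosses. LCR68, a peptide that fell by 4.2 on the log2 scale, was 48.1% maternal in CT and 59.9% in TC at globular, and DRN 44.8% and 51.2%. WOX2 was at 42.6% and 55.4%. PHE1 was 19.0% maternal in CT and 17.9% in TC, on 20 and 13 reads. At heart the genes that rose had medians of 52.1% in CT and 50.5% in TC over 629 genes, close to the 51.5% and 50.2% of genes not called. None of the 629 was maternal in both crosses there, against 19 of all 8611 genes.

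**Figure D5:**
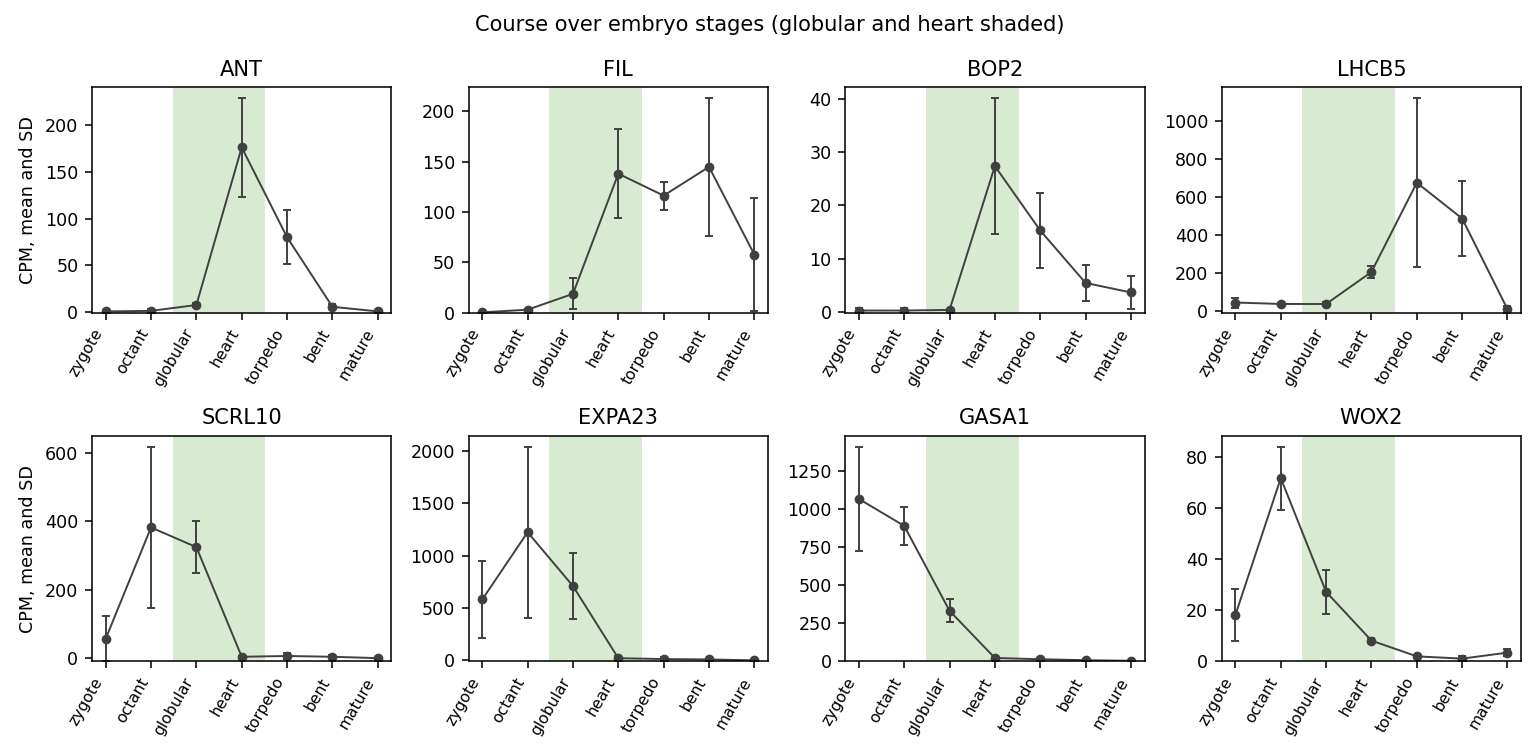
Mean level with SD (CPM, all 29 libraries scaled together, n = 4 per stage and 3 at zygote) of 8 genes across embryo stages, with globular and heart shaded. ANT and BOP2 have their highest mean at heart, LHCB5 at torpedo, FIL at bent, SCRL10, EXPA23 and WOX2 at octant, and GASA1 at zygote.

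Placed in the whole course of embryo stages, the 15 genes with the largest rise had their highest mean at heart (3 genes), torpedo (6 genes) or bent (6 genes). LHCB5 averaged 37.2 ± 11.3 CPM in globular embryos, then 205 ± 32.8 in heart, 674 ± 445 in torpedo and 486 ± 195 in bent embryos (SD, n = 4 each), and had a median of 0.984 CPM in mature ones. BOP2 averaged 0.349 ± 0.257 CPM at globular, 27.4 ± 12.8 at heart and 15.3 ± 7.1 at torpedo. The 15 genes with the largest fall had their highest mean at zygote (5 genes), octant (6 genes), globular (3 genes) or, for LCR68, bent. SCRL10 averaged 382 ± 236 CPM at octant, 325 ± 75.3 at globular, 4.0 ± 2.8 at heart and 6.36 ± 8.3 at torpedo (SD, n = 4 each). GASA1 declined from the zygote on, at 1066 ± 344 CPM (n = 3), 888 ± 126 at octant, 329 ± 75.3 at globular and 18.9 ± 1.93 at heart (SD, n = 4 each). These stage values include the libraries that chose the genes and carry no test.

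The crosses were also compared. A stage by cross interaction passed in 29 of 19811 genes (0.146%) by edgeR's quasi-likelihood test, with 2689 at an unadjusted p under 0.05. Of the 29, 19 were also lower at heart, against 10.4% of all genes in the stage test. In 24 of the 29 the TC change was below the CT change. Each of the 19 was lower in both heart TC libraries than in both heart CT libraries. The interaction test chose these genes from the same libraries that the stage test used. Neither the count of 19 nor that order is therefore a separate result. AT5G46960, an invertase and pectin methylesterase inhibitor, was at 48.6, 58.5, 5.73 and 3.88 CPM in heart embryos, against 138, 218, 465 and 432 CPM in globular embryos. The DUF239 gene AT4G15050 was at 69.1, 39.6, 5.94 and 2.39 CPM at heart and at 306, 285, 493 and 378 CPM at globular. The interaction was -4.82 for AT5G46960 (adjusted p = 0.0152) and -4.27 for AT4G15050 (adjusted p = 0.045). Leaving out globular CT replicate 1, globular TC replicate 2 or heart CT replicate 2 left no interaction call, and leaving out heart TC replicate 2 gave 97.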

How the data were processed

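RNA-seq of hand-dissected embryos was analysed for 4 heart and 4 globular libraries. The deposited total reads are expected counts per gene, which the authors did not normalize. Per library 11.6% to 22.4% of values held decimals, so counts were rounded. A second deposited table holds, for the pooled libraries of a stage and cross, each gene's maternal fraction, its adjusted p-value and an expected count of variant reads. STAR 2.7.0d, featureCounts 1.6.0, edgeR and TAIR10 are named in the submitters' processing notes. Per the labels' protocols, globular CT replicate 1 joins 2 technical libraries and RNA was amplified before library preparation, which can add gene-specific variation.

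The stage test used edgeR 4.0.16 (R 4.3.3): low genes removed by filterByExpr, TMM scaling, and a two-sided quasi-likelihood F test with cross as covariate (5 residual degrees of freedom), with Benjamini-Hochberg adjustment over all genes tested and a threshold of 0.05. Log2 fold changes are heart over globular, and CPM are TMM-scaled. DESeq2 1.42.0, other scalings, no filter, other sets of libraries and leaving out each library were alternatives. On simulated counts for all 8 libraries (18589 genes), 78.5% of 200 genes changed 4-fold were recovered with 9 false calls. Symbols and products came from RefSeq (TAIR10.1), in which 33056 of 33341 identifiers matched. Tables used Python 3.11.15 and pandas 2.3.3.

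The members and lists were chosen with earlier results of these data known. Genes named are the 15 with the largest change per direction that passed with and without heart TC replicate 2, averaged a log2 CPM of 5 or more and did not overlap between stages, up to 4 per list and direction with the smallest p, defining members of lists, and up to 5 per direction whose call was lost without heart TC replicate 2. The p-values set each difference against the spread between these libraries, and whether the libraries share mother plants is not stated.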

Additional observations from a re-analysis of the deposited data

Results flagged for a closer look

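Within each stage, named genes were screened for 1 library standing far from the other 3 (Dixon's test). In all, 256 groups of 4 were tested, and chance alone flags about 1 in 20 of them. Many of the flags below can therefore be chance. Flags at low levels rest on few reads: LOF1 was at 0 CPM in the other globular libraries, and globular TC replicate 2 held 1.49 M reads. Heart TC replicate 2 stood above the other heart libraries for storage and oil genes, with CRA1 at 101 CPM, CRU3 at 288 CPM, SESA5 at 75.4 CPM, OLEO1 at 278 CPM and HSD1, an oil body steroid dehydrogenase, at 43.8 CPM. The same library stood out for the antenna gene LHCA4 at 521 CPM. Globular TC replicate 2, the shallowest library, stood above the other globular libraries for CRA1 at 32.0 CPM, CRU3 at 44.3 CPM, ATML1 at 369.9 CPM, CYCD3;2 at 128 CPM, AT5G54220 at 225 CPM, LPD2 at 7.27 CPM and HDG8 at 5.09 CPM. Heart TC replicate 1 was low for AT3G53310 at 50.7 CPM and EMB3003 at 95.9 CPM, and high for ABI3 at 148 CPM, AGL62 at 2.25 CPM and HDG8 at 0.819 CPM. Globular TC replicate 1 was low for STM at 0.0858 CPM and high for PDF2 at 574 CPM. Globular CT replicate 1 was high for AT5G51105 at 408 CPM and LOF1 at 0.151 CPM, and heart CT replicate 1 for CKX7 at 3.64 CPM.

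The stage change differed between the crosses, by edgeR's interaction test at an adjusted p under 0.05, for 5 named genes. The change in TC minus that in CT, on the log2 scale, was -5.24 for DRN, -4.82 for AT5G46960, -5.39 for AT5G46950, -4.46 for AT1G10190 and -4.27 for AT4G15050. AT5G46950 and AT5G46960 are neighbouring relatives, so their counts may share reads.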

How the results depend on the processing

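The 3197 stage calls became 1521 with TC libraries alone and 5328 with the spread estimated from all 29 libraries, and leaving out 1 library gave 2072 to 3841. DESeq2 called 4470. Other scalings, no filter, no cross covariate, CT libraries alone and a 2-fold minimum kept the count within 1.5 times. Between the stages, deviations from the group mean in libraries with the same replicate number correlated at -0.0568 in CT and 0.366 in TC. These single values do not settle whether the samples were paired. With a block for replicate number 3267 genes were called. The 29 interaction calls ranged from 0 to 97 when 1 library was left out, and were 801 without a filter, so that count rests on single libraries. Without heart TC replicate 2, the list medians were 1.32 for shoot meristem and boundary and -0.84 for oil and maturation. For the group with cysteine-rich product names and for the DUF239 genes they were -2.61 and -1.12. The calls were then 2 falls in the root list, 2 falls in the auxin list, 4 rises in plastid fatty acid synthesis and 5 falls in oil and maturation. CRU3 was -2.59 with CT libraries alone and between -3.59 and 1.1 when 1 library was left out. Of the 30 genes with the largest changes, 27 kept call and direction under every alternative run. Passing without heart TC replicate 2 was part of how those 30 were chosen. Over all 128 named genes tested, 99 were called, and 57 kept their result under every alternative. A minimum of 20 variant reads moved no median maternal share at globular beyond the spread between crosses. With 1.49 M reads, globular TC replicate 2 limits what can be called among low genes.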

Other observations

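Other genes among the largest rises were not photosynthetic. PIP2;8, a plasma membrane aquaporin, was at 81.9, 84.1, 109 and 131 CPM in heart embryos, against 19.9, 18.9, 17.8 and 16.0 CPM in globular embryos (log2 fold change 2.44, edgeR adjusted p = 0.000154). AT3G53310, a B3-type transcription factor, averaged 80.1 ± 19.8 CPM at heart and 16.6 ± 5.89 CPM at globular, and CEL2, a cellulase, 80.4 ± 34.6 and 16.3 ± 6.48 CPM (SD, n = 4 each). Both had their highest mean at heart among the embryo stages. Among the falls, MLP328, a major latex protein relative, averaged 21.8 ± 9.77 CPM at heart and 369 ± 289 CPM at globular, and AT2G24693, of unknown function, 6.64 ± 5.88 and 314 ± 147 CPM (SD, n = 4 each).

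Of the 3197 genes called with all 8 libraries, 721 were not called without heart TC replicate 2, 334 higher and 387 lower. Those with the largest changes among well-read genes were THIC of thiamine synthesis (1.5 on the log2 scale), the phosphoenolpyruvate carboxylase PPC2 (1.34), EMB3003 of plastid pyruvate dehydrogenase (1.27), PETC of the cytochrome b6f complex (1.27) and the sugar kinase relative AT1G66430 (1.24) on the higher side. On the lower side they were AT5G46950 (-3.90), TT4 (-2.79), AT2G35760 (-2.26), AT1G56100 (-2.24) and GGT2 (-1.91). Without that library all 10 kept their direction, and their adjusted p lay between 0.053 and 0.118. Conversely, 362 genes were called only without it. Leaving out each of the other libraries in turn kept 1950 to 2891 of the 3197 calls, against 2476 without heart TC replicate 2.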
